A study of Mus musculus with 6 samples.

Results

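A set of 10 genes of microbial sensing was followed in group 1 innate lymphoid cells (ILC1s) of mouse liver: Tlr1, Tlr2, Tlr4, Tlr6, Tlr7, Tlr8, Tlr9 and Tlr13, which encode Toll-like receptors, Cd14, which encodes a co-receptor, and Myd88, which encodes their shared adaptor. They were taken by gene symbol, and all 10 were found among the 23942 genes of the deposited table. Bulk RNA sequencing had been done on 3 memory libraries (treatment labelled OXA, day 30) and 3 naive libraries (solvent, day 0). The labels do not spell out OXA, and the sources used here do not give strain, genotype, sex, age, the sort that gave the cells or any pooling of animals. Treatment and day differ together, so their effects cannot be told apart. Whether each library stands for its own animal is not said, so every p-value below rests on library-to-library spread that could be technical.

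Toll-like receptors are membrane proteins that bind molecules of microbes and pass the signal on through a cytoplasmic TIR domain. TLR1, TLR2, TLR4 and TLR6 act mainly at the cell surface on lipoproteins and lipopolysaccharide, while TLR7, TLR8, TLR9 and TLR13 act in endosomes on nucleic acids, and TLR3, TLR11 and TLR12 of mice, which are not among the 10, act in endosomes too. In mice they are known best from macrophages, monocytes, dendritic cells and B cells, whereas MyD88 also serves the receptors for IL-1 and IL-18, to which ILC1s respond.

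The libraries held 18697093 to 23795266 reads, recovered from the steps of the deposited values as described with the processing, and 18571 to 19349 genes had a read. Markers of the labelled cell type were abundant in both groups: Ncr1 (NKp46) averaged 505 RPKM in memory and 488 in naive libraries, and Gzmb (granzyme B) 806 RPKM in memory and 884 in naive libraries. RPKM values are reads scaled by exon length and by library total, so that levels of different genes can be set side by side. In such bulk samples, more cells of a type and more RNA per cell cannot be told apart.

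Promoter sequence was looked at for the endosomal receptor genes Tlr8, Tlr9 and Tlr13 because their RNA was higher in memory libraries. Myd88 was looked at because its level was nearly the same in both groups. Tlr7, also higher in memory libraries, was left out with Tlr4 and Cd14, because no promoter sequence was at hand for them. The sequences are from RefSeq (GRCm38.p6), lie before the RefSeq start, stop where an exon of the deposited gene model begins, and run 5′ to 3′ on the gene's strand. Capitals mark GAGGAA or its reverse TTCCTC, a core bound by the myeloid factor PU.1, and in Myd88 a match to GAAA, a pair of any bases, then GAAA, the core of the interferon-stimulated response element. The RefSeq starts of Tlr13 and Myd88 lie inside the span of the deposited gene model, so their printed sequences stop short of that start. The whole printed Myd88 sequence lies inside the span of its deposited model (119335934 to 119341411, minus strand), between exons. By that model it is therefore not upstream of the counted gene. The Tlr8 window is chrX:167264330-167264579 (minus strand), the Tlr9 window chr9:106222348-106222597 (plus), the Tlr13 window chrX:106143025-106143203 (plus) and the Myd88 window chr9:119340042-119340268 (minus).
Tlr8: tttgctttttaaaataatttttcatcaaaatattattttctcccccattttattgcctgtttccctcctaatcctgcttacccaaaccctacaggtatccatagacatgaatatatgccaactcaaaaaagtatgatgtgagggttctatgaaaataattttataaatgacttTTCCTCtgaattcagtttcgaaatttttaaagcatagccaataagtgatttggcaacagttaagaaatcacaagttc
Tlr9: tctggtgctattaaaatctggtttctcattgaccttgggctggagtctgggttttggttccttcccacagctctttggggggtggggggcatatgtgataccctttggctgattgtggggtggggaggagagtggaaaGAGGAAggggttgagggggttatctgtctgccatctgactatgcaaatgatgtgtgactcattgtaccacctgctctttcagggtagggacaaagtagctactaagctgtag
Tlr13: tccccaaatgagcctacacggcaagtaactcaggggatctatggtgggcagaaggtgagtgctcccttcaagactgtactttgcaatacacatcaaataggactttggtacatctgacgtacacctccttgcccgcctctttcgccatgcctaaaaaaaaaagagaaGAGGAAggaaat
Myd88: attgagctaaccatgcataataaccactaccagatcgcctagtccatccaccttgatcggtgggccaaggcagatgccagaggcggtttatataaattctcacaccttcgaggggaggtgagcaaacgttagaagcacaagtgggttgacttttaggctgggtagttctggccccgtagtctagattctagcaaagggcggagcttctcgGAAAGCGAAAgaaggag
In windows of 250 bases before the RefSeq start, read on both strands, GAGGAA occurred once each for Tlr8, Tlr9 and Tlr13. It began 77, 112 and 83 bases before the RefSeq start. It also lay in 1 of the windows of Tlr1 and in none of those of Tlr2, Tlr6 and Myd88. The interferon-stimulated core lay in the Myd88 window and in 1 of the windows of Tlr6. Of 32851 such windows over all genes, 23.25% held GAGGAA and 2.98% held the interferon-stimulated core, so a match to the first is common. No match to GGGA, any base, then TTTCC, an NF-kB core, was found in these windows, against 0.356% of all windows. The matches marked in capitals do not overlap one another, and each describes letters, not binding.

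Of the endosomal receptor genes, Tlr7, Tlr8, Tlr9 and Tlr13 were higher in memory libraries, while Tlr12, the most abundant of them, was not called. Tlr7, whose product binds single-stranded RNA (mm10, chromosome X, 167304929 to 167330558, minus strand), was at 1.46, 1.38 and 1.75 RPKM in memory libraries, against 0.262, 0.373 and 0.232 RPKM in naive libraries. Its reads numbered 127, 134 and 142 in memory and 20, 31 and 20 in naive libraries. The groups stood well apart, and within each the libraries lay close together. The means were 1.53 ± 0.195 RPKM in memory and 0.289 ± 0.0745 in naive libraries (SD, n = 3 each), and Tlr7 rose by 0.97 (SE 0.12) on the log2(RPKM + 1) scale (limma adjusted p = 0.00591). This scale understates changes at such low levels: the means of Tlr7 differed 5.30-fold. By limma's voom on the recovered reads, with no filter on low values, the change of Tlr7 was 2.39 (SE 0.34).

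Tlr13, which in mice senses bacterial ribosomal RNA (chromosome X, 106143204 to 106160493, plus strand), was at 1.41, 1.17 and 1.47 RPKM in memory libraries, against 0.0786, 0.0963 and 0.440 RPKM in naive libraries. Naive replicate 3 stood above the other naive libraries, with 38 reads against 6 and 8, and still below every memory library. Tlr13 averaged 1.35 ± 0.155 RPKM in memory and 0.205 ± 0.204 RPKM in naive libraries and rose by 0.97 (SE 0.15, limma adjusted p = 0.0181). Tlr8, the neighbour of Tlr7 and in humans a sensor of RNA breakdown products (chromosome X, 167242696 to 167264329, minus strand), was at 0.919, 0.738 and 0.955 RPKM in memory libraries and 0.119, 0.165 and 0.185 RPKM in naive libraries. The lowest memory value of Tlr8 was above the highest naive value, and the gene rose by 0.69 (SE 0.12, limma adjusted p = 0.0249). Its reads were few, 70, 63 and 68 in memory and 8, 12 and 14 in naive libraries.

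These 3 were the only calls among the 6 of the 10 genes that reached the filter of a mean of 0.5 RPKM. Among all 13793 tested genes, 4.17% were called, 3.2% higher and 0.972% lower in memory, "called" meaning a Benjamini-Hochberg adjusted p under 0.05. Tlr7, Tlr8 and Tlr13 reached the filter only through their memory levels, so their count among the tested genes supports nothing by itself. Tlr7 was called in all 6 fits leaving 1 library out (adjusted p 0.0214 to 0.0299). Tlr8 lost its call without any of the libraries (0.0655 to 0.0901), and Tlr13 without any but naive replicate 3 (0.0603 to 0.0774, against 0.0149 without naive replicate 3).

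Tlr9, whose product binds unmethylated CpG DNA (chromosome 9, 106222598 to 106226883, plus strand), was at 0.839, 0.749 and 0.710 RPKM in memory libraries, against 0.0923, 0 and 0.0544 RPKM in naive libraries. That was 62, 62 and 49 reads in memory and 6, 0 and 4 in naive libraries. A level of 3 reads is 0.147 RPKM at 1 kilobase of exon in naive replicate 2, and Tlr9 has 3478 bases of exon. It is the most that a count of 0 allows by counting error alone if reads are independent, and is too low where both mates of a pair were counted. Its means of 0.766 ± 0.0663 RPKM in memory and 0.0489 ± 0.0464 in naive libraries differed 15.7-fold, the widest ratio among the 10 genes. Tlr9 had the lowest naive mean of the 10, and its mean over all 6 libraries, 0.407 RPKM, was under the filter. With no filter it was called (log2 change 0.75, SE 0.06, limma adjusted p = 0.00497), in a fit that called 2.12% of 23942 genes, 1.76% higher. It was also called when any single library was left out of that fit (0.0232 to 0.0382).

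**Figure D1:**
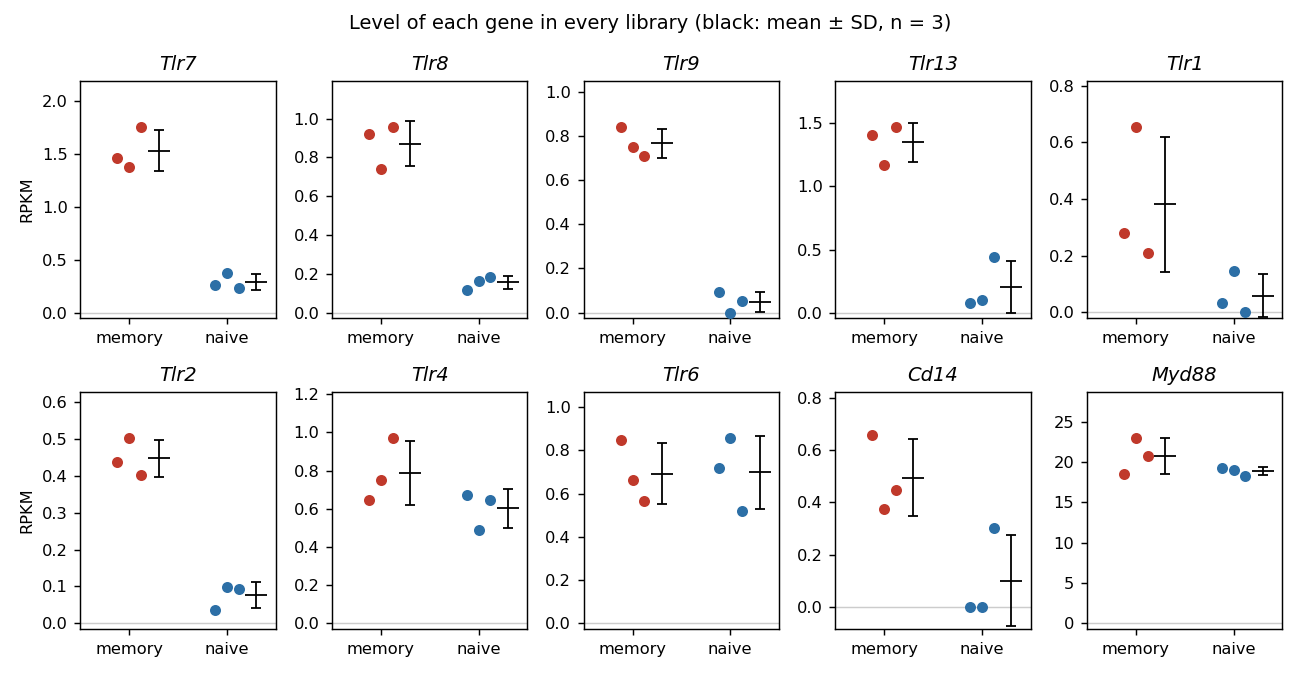
Level of each of the 10 genes in RPKM, in the 3 memory libraries (left, red) and the 3 naive libraries (right, blue), with the mean and SD of each group in black, on linear axes that differ between panels. Memory and naive points stand apart for Tlr7, Tlr8, Tlr9, Tlr13, Tlr1, Tlr2 and Cd14 and overlap for Tlr4, Tlr6 and Myd88.

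The cell surface receptors were mixed. Tlr2, which pairs with TLR1 or TLR6 to bind bacterial lipopeptides (chromosome 3, 83836272 to 83841767, minus strand), was at 0.437, 0.502 and 0.401 RPKM in memory libraries, against 0.0355, 0.0979 and 0.0942 RPKM in naive libraries. Each memory library held 24 to 36 reads of Tlr2 and each naive library 2 to 6, with no overlap. Below the filter, Tlr2 was called in the fit with no filter (log2 change 0.43, SE 0.05, limma adjusted p = 0.0160). That call was lost without memory replicate 1 or any naive library (0.0575 to 0.0679).

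Tlr1 (chromosome 5, 64924679 to 64933563, minus strand) was at 0.281, 0.653 and 0.211 RPKM in memory libraries and 0.0320, 0.147 and 0 RPKM in naive libraries. Memory replicate 2 was the highest in its group, with 52 reads against 20 and 14, and the naive libraries held 2, 10 and 0. The groups did not overlap, but the change was not called with no filter (0.37, SE 0.13, limma adjusted p = 0.292). Voom with no filter, which called 5.27% of 18343 genes higher, called it (adjusted p = 0.0327). Tlr6, the neighbouring paralogue (chromosome 5, 64952031 to 64960097, minus strand), was at 0.846, 0.665 and 0.568 RPKM in memory libraries and 0.718, 0.857 and 0.521 RPKM in naive libraries. Its groups overlapped fully, with means of 0.693 ± 0.141 RPKM in memory and 0.699 ± 0.169 in naive libraries and a difference of -0.0031 on the log2(RPKM + 1) scale (SE 0.13, limma adjusted p = 0.996). In GENCODE M21 transcripts, 259 stretches of 100 bases, 7.89% of those of Tlr1 and 7.09% of those of Tlr6, were identical in the other gene. Of stretches of 50 bases, 15.4% of those of Tlr1 and 12.3% of those of Tlr6 occurred in some other gene, not only in each other. Reads from shared stretches could have been lost or given to the wrong gene, and no read length is stated in the labels. None of the other 8 genes shared a stretch of 100 bases with another gene.

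Tlr4, the receptor for lipopolysaccharide (chromosome 4, 66827584 to 66930284, plus strand), was at 0.644, 0.749 and 0.970 RPKM in memory libraries and 0.674, 0.487 and 0.647 RPKM in naive libraries. The lowest memory library lay within the naive range, and the change of 0.16 (SE 0.13) was not called (limma adjusted p = 0.589). Cd14, whose product hands lipopolysaccharide to TLR4, was at 0.659, 0.374 and 0.449 RPKM in memory libraries, against 0, 0 and 0.301 RPKM in naive libraries. All 10 naive reads of Cd14 came from naive replicate 3, and the memory libraries held 22, 14 and 14. Its groups did not overlap, but neither the fit with no filter (0.45, SE 0.13, limma adjusted p = 0.205) nor voom (adjusted p = 0.0571) called it. Ly96, the gene of MD-2, through which TLR4 binds lipopolysaccharide, had 8 to 10 reads in memory and 6 to 20 in naive libraries and was not called (limma adjusted p = 0.766).

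Among the genes under the filter, Tlr1, Tlr2, Tlr9 and Cd14 all had memory values above every naive value. Of the 3596 genes with a mean of 0.1 to under 0.5 RPKM, 12% did. Over the tested genes the share was 14.9%, with 9.24% the other way round, and Tlr7, Tlr8 and Tlr13 were in it.

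Myd88 was the most abundant of the 10 in both groups. The adaptor gene (chromosome 9, 119335934 to 119341411, minus strand) was at 18.5, 23.0 and 20.7 RPKM in memory libraries and 19.3, 19.0 and 18.3 RPKM in naive libraries. Memory replicate 1 lay inside the naive range and the other memory libraries above it. The means were 20.7 ± 2.21 RPKM in memory and 18.8 ± 0.504 in naive libraries, and the change of 0.13 (SE 0.08) was not called (limma adjusted p = 0.468; lowest 0.209, without memory replicate 1). Of its exon bases, 11.3% are also exon of Acaa1a on the opposite strand, and the strand setting of the counting is not given.

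The order of levels differed between the groups. In memory libraries Myd88 was followed by Tlr7 and Tlr13, which overlapped each other and stood above all the rest in every library, and each later neighbour from Tlr8 to Tlr1 overlapped the next. In naive libraries Myd88 was followed by Tlr6 and Tlr4, which overlapped each other and stood above Tlr7, and all lower neighbours overlapped.

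Summed over the 8 receptor genes, the level was 6.83 ± 0.213 RPKM in memory and 2.14 ± 0.111 RPKM in naive libraries. The endosomal receptors Tlr7, Tlr8, Tlr9 and Tlr13 made up 67.7%, 61.1% and 69.4% of that sum in memory libraries and 27.5%, 28.5% and 41.9% in naive libraries. Their own sum was 4.52 ± 0.433 RPKM in memory and 0.699 ± 0.188 RPKM in naive libraries, while the 4 surface receptors summed to 2.31 ± 0.227 RPKM in memory and 1.44 ± 0.165 in naive libraries. With the endosomal Tlr3, Tlr11 and Tlr12 added, the sum of 7 endosomal receptor genes was 11.4 ± 0.819 RPKM in memory and 8.52 ± 1.24 in naive libraries, a ratio of 1.34, against 6.46 for the 4, and most of it was Tlr12. All 8 together stayed below the level of Myd88 alone in every library.

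**Figure D2:**
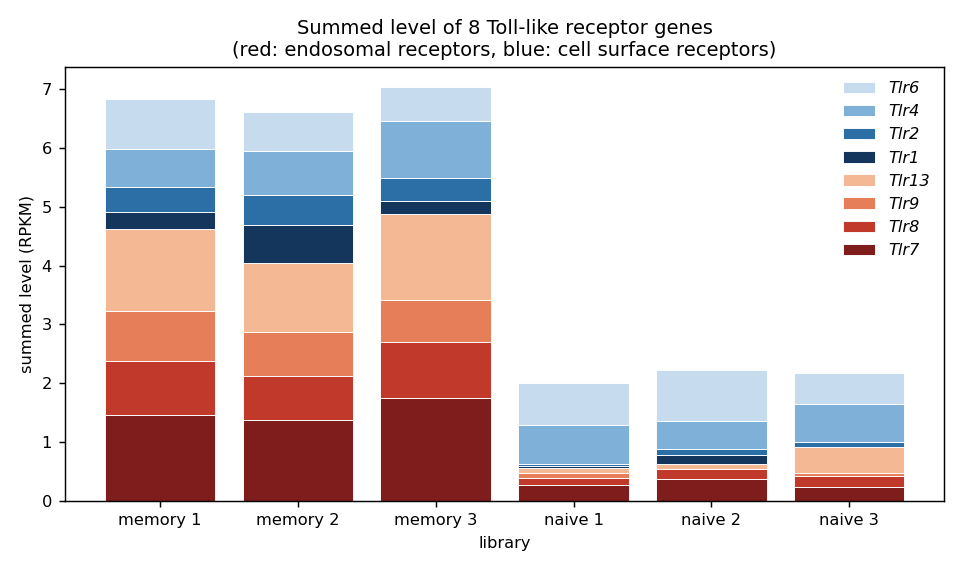
Summed level in RPKM of the 8 Toll-like receptor genes in each library, memory libraries left and naive libraries right, with each receptor as a block (Tlr7, Tlr8, Tlr9 and Tlr13 in reds, surface receptors in blues; the other endosomal receptors are not drawn). The red blocks reach 4.04 to 4.89 RPKM in memory and 0.552 to 0.911 RPKM in naive libraries, while Tlr4 and Tlr6 have blocks of like size in both groups.

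Of the other mouse Toll-like receptor genes, the endosomal Tlr12, whose product senses profilin of protozoan parasites, was above each of the 8 in every library. It averaged 6.69 ± 0.408 RPKM in memory and 7.75 ± 1.22 RPKM in naive libraries and was not called (log2 change -0.18, limma adjusted p = 0.468). Tlr3, whose product binds double-stranded RNA in endosomes, had 9, 22 and 12 reads in memory and 6, 0 and 16 in naive libraries. Tlr5 had 2 reads in all memory libraries and none in naive ones, and Tlr11 had 10, all in memory replicate 1, and none in naive ones.

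Markers of myeloid cells were higher in the same memory libraries. Of 10 monocyte and macrophage markers 9 were tested, 8 rose and none fell, and their summed level was 470 to 496 RPKM in memory and 40.4 to 48.3 RPKM in naive libraries. Lyz2 (lysozyme) averaged 448 RPKM in memory and 37.8 in naive libraries, and Csf1r, the receptor for a macrophage growth factor, 11.1 RPKM in memory and 1.42 in naive libraries. None of the 10 markers was at 0 in all libraries of a group, 6 of the 8 calls held without any 1 library, and Ms4a7 was lowest, with 4 to 10 reads in memory and 0 to 2 in naive libraries. Of 9 Kupffer cell markers 4 rose, with a sum of 36.9 to 37.6 RPKM in memory and 19.0 to 22.9 RPKM in naive libraries and none at 0. Among them Cd5l was at 10.1 RPKM in memory and 8.41 in naive libraries and not called, and Marco at 7.01 RPKM in memory and 1.18 in naive libraries. The call of Marco held without any 1 library, while Clec4f lost its call in 4, C1qc in 5 and C1qa in 6 of the 6 fits leaving 1 out.

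The ratio of means was 4.92 to 15.7 for the 7 genes whose groups stood apart, 11.8 for Lyz2 and 7.78 for Csf1r. It was 1.31 for Tlr4, 0.992 for Tlr6 and 1.10 for Myd88. Of 5 tested conventional dendritic cell markers 2 rose, and the list summed to 81.2 to 85.4 RPKM in memory and 78.6 to 84.4 RPKM in naive libraries, most of it Itgax (76.8 RPKM in memory and 79.9 in naive libraries), with Xcr1 next (1.42 in both groups). The risers were Cd209a (2.55 RPKM in memory and 0.189 in naive libraries), whose call held without any 1 library, and Clec10a (1.08 RPKM in memory and 0.102 in naive libraries), whose call was lost in 5 of 6 such fits. Flt3 had 42 to 79 and Clec9a 9 to 23 reads in memory libraries, and neither had a read in naive libraries. Zbtb46 was at 0.917 RPKM in memory and 0.393 in naive libraries, not called by limma (adjusted p = 0.115) but called by voom (adjusted p = 0.000483). In 5 of the 7 genes of this list every memory value was above every naive value, against 14.9% of all tested genes. The sum of the list mostly follows Itgax and does not show this. Siglech, a marker of plasmacytoid dendritic cells, in which TLR7 and TLR9 are prominent, was at 1.08 ± 0.379 RPKM in memory and 0.0805 ± 0.0496 in naive libraries and rose (limma adjusted p = 0.0250, lost in 5 of 6 fits leaving 1 out). The other 4 tested markers of that list were not called, Bst2 (21.7 RPKM in memory and 18.9 in naive libraries) and Cox6a2 (10.1 RPKM in memory and 6.97 in naive libraries) among them. Klk1, under the filter, had 12, 26 and 18 reads in memory and 2, 2 and 0 in naive libraries. It was called with no filter (limma adjusted p = 0.0399). Ccr9, also under the filter, had 31, 56 and 52 reads in memory and 20, 6 and 22 in naive libraries. That fit did not call Ccr9 (limma adjusted p = 0.246). The list summed to 38.9 to 42.4 RPKM in memory and 30.9 to 36.8 RPKM in naive libraries.

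Of 3 B cell markers in the table, Cd79b was at 0.798 RPKM in memory and 0.858 in naive libraries, Cd79a had 3 to 5 reads in memory and 4 to 8 in naive libraries and Blk 0 to 4 reads in memory and 0 to 1 in naive libraries. Of 6 neutrophil markers 1 was tested, Csf3r, which rose (1.55 RPKM in memory and 0.170 in naive libraries). Mmp8, under the filter, had 30, 30 and 36 reads in memory and 0, 4 and 2 in naive libraries and was called with no filter (limma adjusted p = 0.0127). S100a8 and Cxcr2 had no read in memory libraries, and only 0, 2 and 2 and 2, 0 and 0 reads in naive ones. The list summed to 2.08 to 2.70 RPKM in memory and 0.438 to 0.827 RPKM in naive libraries. The 6 hepatocyte markers summed to 10.2 to 11.7 RPKM in memory and 4.15 to 4.87 in naive libraries, and all 5 tested had a positive change. Of these Alb rose (3.86 RPKM in memory and 1.40 in naive libraries; Fabp1 2.63 in memory and 1.43 in naive libraries), a call lost in 5 of 6 fits leaving 1 out. Of 4 tested T cell markers Cd3g fell (16.4 RPKM in memory and 20.8 in naive libraries; Cd4 1.84 in memory and 1.60 in naive libraries), a call also lost in 5 of 6. Pecam1 (18.6 RPKM in memory and 14.9 in naive libraries), the only tested liver endothelial marker, was not called, and Clec4g was at 0.459 RPKM in memory and 0.257 in naive libraries. Of 10 markers of group 1 innate lymphoid cells in general, 9 were not called. Eomes was among these (1.19 RPKM in memory and 0.810 in naive libraries). Cxcr6 was lower (48.0 RPKM in memory and 58.8 in naive libraries), a call lost in 4 of 6 fits leaving 1 out. The median change of the 10 was -0.06. The part of these other cell types in the receptor values was not tested.

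**Figure D3:**
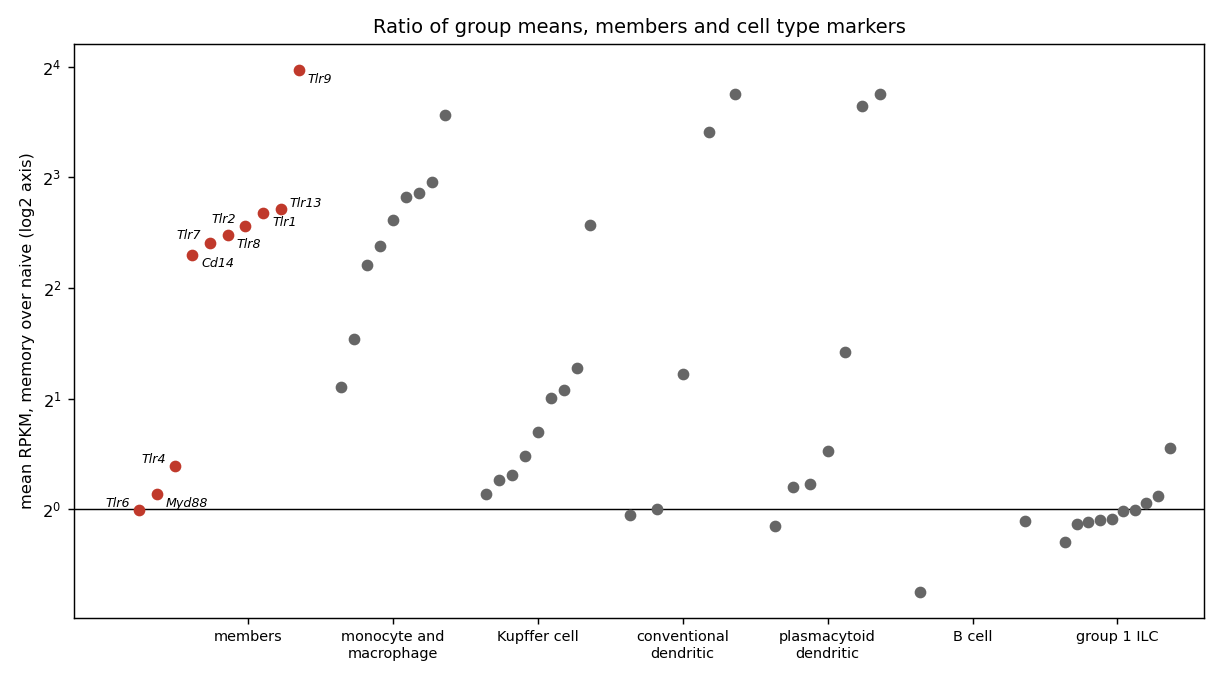
Mean RPKM in memory over mean RPKM in naive libraries, on a log axis, for the 10 genes (red, named) and for markers of 6 cell types (grey), 1 point per gene. Markers with 3 or fewer naive reads in total are not drawn. Tlr6, Myd88 and Tlr4 lie near 1 beside most group 1 innate lymphoid cell markers, while the other 7 genes lie at 4.92 to 15.7. Of these, Tlr9 lies above every marker drawn and the rest lie within the spread of monocyte and macrophage markers.

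Other genes of the pathway were counted in lists by role, drawn up with earlier results of these data known, so they are no independent evidence of direction. Of 57 tested pathway genes 17 rose and none fell, against 3.2% and 0.972% of all tested genes. Cd36, Cd180, Ly86 and Il1b among them had naive means under 0.5 RPKM and reached the filter only through their memory levels, so the counts of their lists are descriptions. The median change of the 57 was 0.13, against 0.02 over all tested genes, of which 54.6% were above 0. The count was 8 to 14 when a library was left out (lowest without naive replicate 2) and 10 of 47 genes with a filter of 2 RPKM. The monocyte and macrophage markers given above were higher in the same libraries.

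Genes for receptor handling and co-receptors gave 4 rises among 10 tested (median 0.16). Unc93b1, which carries the endosomal receptors from the endoplasmic reticulum to endosomes, averaged 26.7 ± 0.588 RPKM in memory and 16.1 ± 0.412 RPKM in naive libraries (log2 change 0.70, SE 0.04, limma adjusted p = 0.000315). Its groups lay far apart relative to their spread, and the call held without any 1 library. Cd36, a scavenger receptor that aids TLR2 and TLR6, averaged 1.08 RPKM in memory and 0.145 in naive libraries. Cd180, a relative of TLR4 known best from B cells and myeloid cells, was at 1.03 RPKM in memory and 0.162 in naive libraries, and Ly86 (MD-1), its partner, at 1.89 RPKM in memory and 0.293 in naive libraries. These 3 rose (limma adjusted p 0.0144 to 0.0415), and Cd36 lost the call in 4, Cd180 and Ly86 in 5 of the 6 fits leaving 1 library out. Hsp90b1, the chaperone that folds Toll-like receptors, was at 732 RPKM in memory and 714 in naive libraries and Pik3ap1, an adaptor to PI3-kinase, at 77.8 RPKM in memory and 84.2 in naive libraries, and neither was called.

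Adaptors, kinases and factors downstream were mostly level, with 2 rises among 23 tested and a median of 0.06. Irf5, a transcription factor activated through MyD88, rose to 21.9 ± 0.397 RPKM in memory libraries, against 15.3 ± 1.30 RPKM in naive ones (log2 change 0.49, limma adjusted p = 0.00940). Ikbke, an IKK-related kinase, rose to 9.71 ± 0.762 RPKM, against 6.11 ± 0.0654 RPKM in naive libraries (0.59, limma adjusted p = 0.00547). Both calls held without any 1 library. Irak1, a kinase recruited by MyD88, was at 15.6 RPKM in memory and 17.9 in naive libraries (limma adjusted p = 0.104), and voom on the recovered reads called it lower (adjusted p = 0.0427). Irf7, a factor of interferon induction, was at 20.5 RPKM in memory and 18.1 in naive libraries, and Tab2 and Rela, the most abundant of the list, at 98.4 RPKM in memory and 96.1 in naive libraries and at 50.5 RPKM in memory and 50.1 in naive libraries, with no call. Ticam2, the adaptor TRAM of TLR4, was below the filter, with 43, 94 and 72 reads in memory and 6, 2 and 8 in naive libraries, and was called with no filter (limma adjusted p = 0.0414).

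Negative regulators had 5 rises among 11 tested (median 0.11). Irak3 (IRAK-M), a kinase-like brake known best from monocytes and macrophages, rose to 1.93 ± 0.360 RPKM in memory libraries, against 0.559 ± 0.0827 RPKM in naive ones (0.91, limma adjusted p = 0.0113, and 0.0518 without naive replicate 2). Nfkbia, which encodes an NF-kB inhibitor, was at 54.1 RPKM in memory and 30.9 in naive libraries, and Tnfaip3 (A20) at 16.6 RPKM in memory and 12.2 in naive libraries. The calls of these were 0.000740 and 0.00907 as adjusted p, the second lost without memory replicate 2 (0.0510). Tnip1, a partner of A20, rose to 81.6 RPKM, against 65.8 in naive libraries, a call lost in 4 of the 6 fits leaving 1 library out. Lilrb4a, an inhibitory receptor gene with near relatives that may share its reads, was at 98.6 RPKM in memory and 64.9 in naive libraries (limma adjusted p = 0.000404).

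The receptors through which MyD88 acts for the IL-1 family were led by the IL-18 receptor. Il18r1 averaged 93.7 ± 3.24 RPKM in memory and 78.3 ± 2.64 RPKM in naive libraries, and Il18rap, the second chain, 52.8 ± 1.41 RPKM in memory and 46.1 ± 1.28 in naive libraries. Both rose slightly, by 0.26 and 0.19 (limma adjusted p = 0.0218 and 0.0485), and lost the call in 4 and 6 of the 6 fits leaving 1 library out. Il1rap, the accessory chain of IL-1 receptors, was at 1.09 RPKM in memory and 0.939 in naive libraries and was not called. Il1r1, Il1rl1 and Il1rl2 were below the filter.

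Of 9 tested targets of Toll-like receptor signalling, 4 rose and none fell, and all 9 had a positive change (median 0.36). Il1b, which encodes interleukin-1 beta, was at 3.47 ± 0.315 RPKM in memory and 0.448 ± 0.113 RPKM in naive libraries (log2 change 1.63, SE 0.11, limma adjusted p = 0.000490). Icam1, an adhesion molecule, was at 61.4 ± 0.862 RPKM in memory and 35.8 ± 1.30 in naive libraries (0.76, limma adjusted p = 0.000133). Both held without any 1 library. Cxcl10, a chemokine gene (1.92 RPKM in memory and 0.561 in naive libraries), and Socs3, a cytokine feedback inhibitor (7.79 RPKM in memory and 5.24 in naive libraries), rose too but lost the call in 5 of 6 such fits. Ccl3, the most abundant after Icam1, was at 25.9 RPKM in memory and 19.9 in naive libraries and was not called (limma adjusted p = 0.0833). Cd40, below the filter, had 52, 62 and 56 reads in memory and 0, 2 and 2 in naive libraries. Il10 and Nos2 had no read in memory libraries, but only 0, 4 and 3 and 0, 0 and 2 reads in naive ones. Il12b, Cxcl2 and Ptgs2 had none in naive libraries. In memory libraries Il12b had 2, 6 and 3 reads, Cxcl2 10, 14 and 4 and Ptgs2 2, 0 and 0. At so few reads, none on 1 side does not show a difference.

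**Figure D4:**
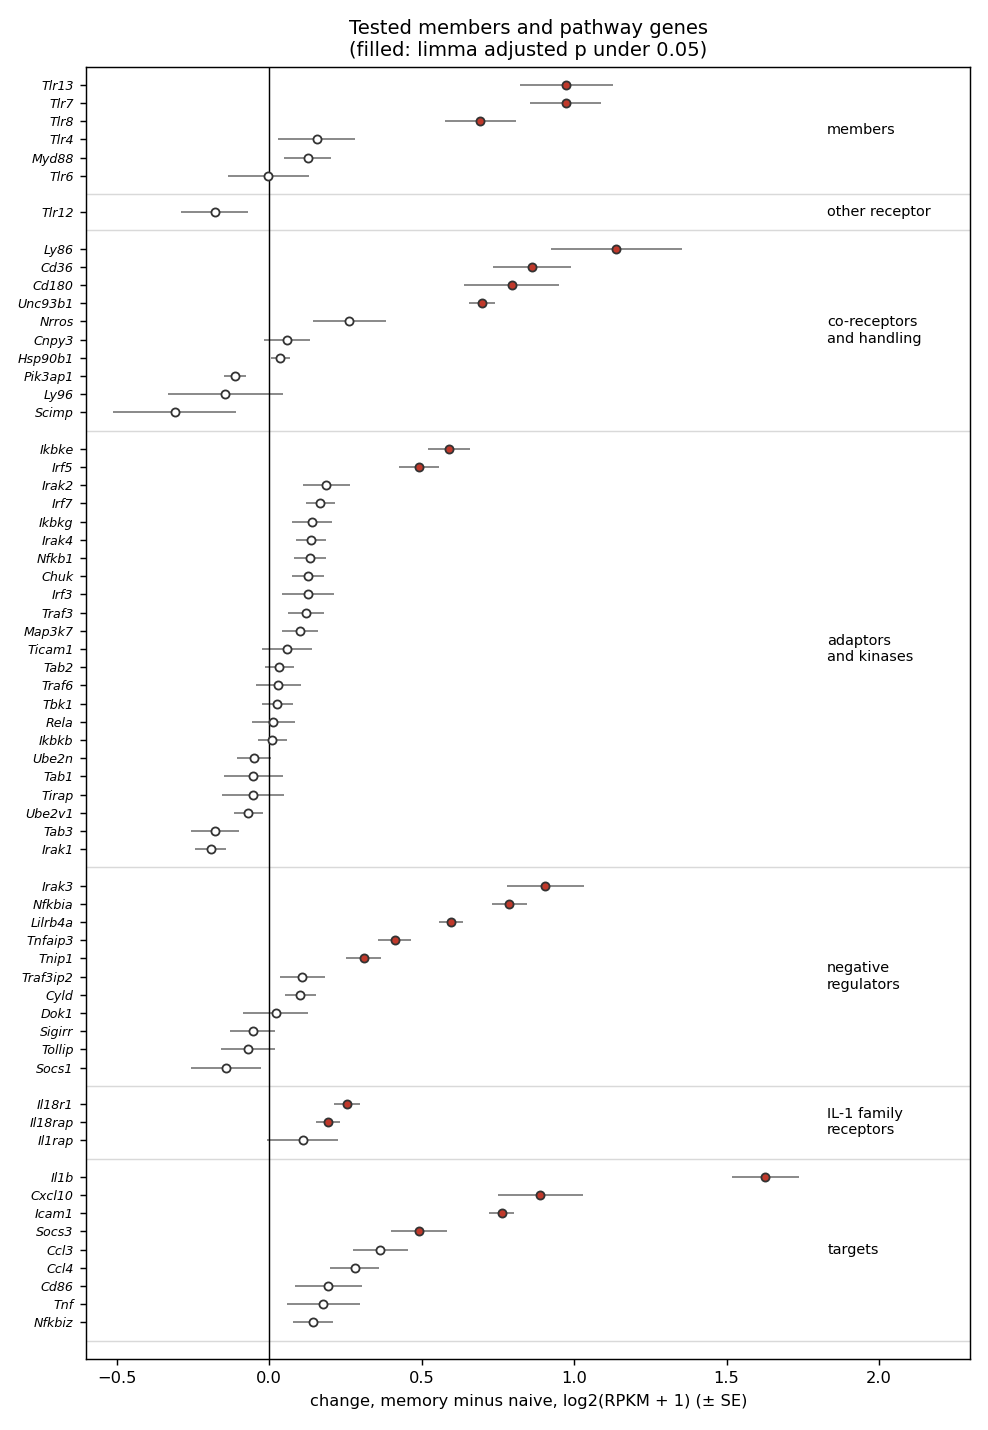
Difference between memory and naive libraries (log2 of RPKM + 1) with its SE for each tested gene, grouped by role, for 6 of the 10 genes and 57 pathway genes. Filled points have a limma adjusted p under 0.05: 3 of the 10 genes and 17 pathway genes, all to the right of 0.

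For each called receptor, up to 3 genes of near pattern were sought among 12225 genes averaging 1 RPKM or more, by the root mean square difference over the 6 libraries of log2(RPKM + 1) values, each taken from the gene's own naive mean. Nearest to Tlr7 were Lst1, a leukocyte transcript (0.056; 16.9 RPKM in memory and 8.15 in naive libraries), Apobec1, an RNA-editing enzyme (0.063; 6.63 RPKM in memory and 2.81 in naive libraries), and Dscam (0.090; 3.51 RPKM in memory and 1.46 in naive libraries). Nearest to Tlr13 were S1pr5, a sphingosine phosphate receptor (0.077; 2.85 RPKM in memory and 1.07 in naive libraries), Apobec1 (0.12) and Cfap53 (0.13; 4.34 RPKM in memory and 1.70 in naive libraries). Among those near to Tlr8 were Gm2a, a lysosomal lipid-binding protein (0.052; 4.99 RPKM in memory and 2.67 in naive libraries), and Zfp608 (0.063; 1.55 RPKM in memory and 0.616 in naive libraries). The measure likens changes on this scale, not levels, and with 2 groups many genes come near.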

How the data were processed

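The deposited table held 1 RPKM value per gene and library, which the authors had scaled by exon length and library total, per the file headers and values. Per the submitters' processing notes, mm10 was the build, and the tools were edgeR 3.12.1, Subread 1.5.1 with featureCounts, and STAR 2.5.3a, with no step named. TRIzol and a stranded mRNA kit were used, per the labels' protocols, which mention no molecular identifiers.

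Dividing each value by the step of 1 read recovered whole reads, to within 0.001, for 100% of values. Of counts of 1 to 10, 69.8% to 72.3% were even, as counting both mates of each pair would give, so independent molecules were fewer than reads. A floor of 3 reads covers counting error only and takes reads as independent, so it is too low where both mates were counted.

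The test was limma-trend (limma 3.58.1, R 4.3.3) on log2(RPKM + 1), memory minus naive, for genes averaging 0.5 RPKM or more, adjusted over all 13793 genes tested. It was checked on simulated data. Sums, ratios and motif searches were made in Python 3.11.15 and plots in matplotlib 3.10.9. No 2 libraries agreed within counting noise (chi-square per gene at least 4.93, or 2.47 with reads halved). Deviations of same-numbered libraries from their group means correlated at -0.08, -0.04 and -0.0030, which shows no shared effect of the number. With 3 libraries per group this cannot tell whether they were paired. No block was used in the main fit, and a fit with a block is given among the alternatives.

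The 10 genes, the lists, the tests and the rule for named genes were chosen with earlier results of these data known. The rule named all 10 genes, up to 4 genes per pathway list by adjusted p and 2 by level, and 2 per cell type list by level. Ly96, Ticam2, Cd40, Siglech, Ms4a7, Flt3, Clec9a, Cd209a, Clec10a, Clec4f, C1qa, C1qc, Tlr5, Tlr11, Blk, S100a8, Cxcr2, Cxcr6 and the genes listed as having no read were named after their values were seen. So were Klk1, Ccr9, Eomes, Zbtb46, Cd3d, Trac, Il1r1, Il1rl1 and Il1rl2. Il6, Cxcl1, Ms4a1 and other listed genes were not analysed here, and 1 gene near Tlr8 in pattern is not reported here. Alternatives were other pseudocounts and filters, quantile normalization, median ratio scaling, voom on recovered reads, a replicate block and each library left out.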

Additional observations from a re-analysis of the deposited data

How the results depend on the processing

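The directions of Tlr7, Tlr8 and Tlr13 were the same in every alternative run. Among the 6 tested receptor and adaptor genes, 3 were called, also with pseudocounts of 0.1 and 0.5, under median ratio scaling and by voom. The count was 2 under quantile normalization, which lost Tlr8 (adjusted p = 0.0719), and 1 to 2 when a library was left out. With the replicate number as a block, which the labels do not say pairs the libraries, limma called 0 of 6 (3 at an unadjusted p under 0.05; adjusted p 0.0526 for Tlr7), where voom without a block called 3. A filter of 2 RPKM left Myd88 alone, with 0 calls by limma and 0 at an unadjusted p under 0.05. Voom, run at the 0.5 RPKM filter, did not call Myd88 either. With no filter 5 of 10 were called, and 6 of 10 by voom with no filter, an alternative chosen after seeing the data. Tlr6, at a change of -0.0031, moved to 0.0082 by voom, 0.0088 by voom with no filter and -0.080 to 0.064 when a library was left out. Quantile normalization moved Tlr6 furthest, to -0.11, and Tlr4 from 0.16 to 0.046, with neither called. Over all genes, 575 calls became 1141 by voom, 271 with the replicate block and 275 to 387 when a library was left out. Pathway calls, 17 in all, became 10 with a filter of 2 RPKM, 8 with the replicate block and 8 to 14 when a library was left out. With so few reads per receptor and library, depth limits the precision of each ratio, and copies made in amplification could not be seen.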
